A study of Sus scrofa with 35 samples.

Results

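The tumour necrosis factor (TNF) superfamily was described here in whole blood of 35 castrated male pigs, with 1 one-colour array for each pig. Members were probes whose gene name started with TNFSF or TNFRSF, or was TNF, LTA, LTB, LTBR, FAS, FASLG, CD27, CD70, CD40, CD40LG, EDAR or NGFR. The rule uses names and no measured value. It found 49 probes for 24 gene names among 60305 distinct probes of the array, and no probe was named EDAR. The authors' table of 39072 normalized log2 values holds 40 of these probes, for 9 ligand genes and 10 receptor genes.

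The pigs were Creole (CR), Large White (LW) or F1 pigs, which the methods of the study give as a cross of both. Blood came from pigs kept at 24 °C, the thermoneutral (TN) groups, or from pigs exposed to heat stress (HS). Each combination of breed and climate had 6 pigs, except CR in TN with 5 pigs, which gave 17 TN and 18 HS pigs. The sample labels give 30 °C for HS, whereas the protocol text gives 32 °C for 5 days. In the methods of the study, HS pigs were slaughtered after 5 days of exposure or a day earlier. The labels do not say which length applied to each pig. All pigs were castrated growing males. Slaughter of the TN groups preceded the warming of the room, so that climate and time of slaughter cannot be told apart. The methods describe blocks of littermates and shared pens, but the labels give no litter, pen or day, so that p-values treat all pigs as independent.

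Ligands of this superfamily are trimeric proteins, on the cell surface or released from it, and most receptors span the membrane. Receptors such as FAS and TNFRSF1A carry a death domain and can start apoptosis, and others recruit TRAF adaptor proteins and activate NF-kappaB. In blood and lymphoid tissue the family is known for inflammation, for the help that T cells give to B cells, for survival of lymphocytes and for the organisation of lymphoid organs.

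Several results below depend on which 60 bases a probe holds, and the probe sequences that matter are given first. CD70, the ligand of CD27, had a pair of probes in the table. The one that does not represent the gene is shown, with the 33 bases that it shares with the representative in capitals, since these overlapping probes had opposite signs under heat stress.
CD70 other probe: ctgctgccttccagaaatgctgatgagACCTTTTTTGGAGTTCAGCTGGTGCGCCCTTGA
LTA encodes lymphotoxin alpha, which is secreted or held on the cell by LTB. The probe of LTA with the highest mean value is shown because a second LTA probe, which shares no stretch of 20 bases with it, went the other way.
LTA representative probe: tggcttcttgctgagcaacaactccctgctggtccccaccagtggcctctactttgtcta
For CD27, a TNF receptor of T and memory B cells, the only probe in the table is shown because its call lay at the threshold and because a probe under another identifier repeats the same bases.
CD27 probe: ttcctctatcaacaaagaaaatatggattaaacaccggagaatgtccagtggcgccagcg
TNFSF4 (OX40 ligand) and its receptor TNFRSF4 (OX40) were not in the table. The probe that the array names Tnfrsf4 had the same 60 bases as a probe named TNFSF4, all in capitals here because all are shared. A further probe with these bases carries the RefSeq identifier that the array gives for this TNFSF4 probe. The probe named Tnfrsf4 is thus no separate measure of the receptor.
TNFSF4 and Tnfrsf4 probe: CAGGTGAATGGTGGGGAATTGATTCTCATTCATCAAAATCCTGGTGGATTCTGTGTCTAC

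Where a gene had several probes, the one with the highest mean log2 value over the 35 arrays stood for the gene. Between 55.2% and 68.0% of the probes on an array were well above background according to the scanner software, and F1 TN pigs had the lowest group mean. The arrays lay on 5 slides, of which 4 held all 6 groups. Groups below are named by breed and climate, and replicate numbers follow the order of deposit. A member was called when the p-value of limma, adjusted with the Benjamini-Hochberg method over all 39072 probes, was under 0.05. Under heat stress this was the case for 13601 probes in the model with breed and climate. From a model that also had random terms for pen, slaughter day, sire and dam, the study reported far fewer differentially expressed probes in blood. The calls below come from fits without these terms. All differences below are on the log2 scale.

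Among the 19 genes, 8 were called between HS and TN pigs, with 4 higher and 4 lower under heat stress. This share of 42.1% lay near the 39.5% of all 8811 named genes that were called, so that the count by itself does not set the superfamily apart. By direction, 22.8% of all genes were called higher and 16.8% lower. The genes that rose were LTB, its receptor LTBR, CD40 and CD27. Those whose representative probe fell were NGFR, TNFSF12, its receptor TNFRSF12A, and LTA. The median difference was 0.10 over the 19 genes, -0.06 over the ligands and 0.17 over the receptors, beside 0.06 over all named genes. None of the 8 calls was kept without F1 pigs or with the mean of erythroid markers as a covariate, although all 8 differences kept their sign in both fits.

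**Figure D1:**
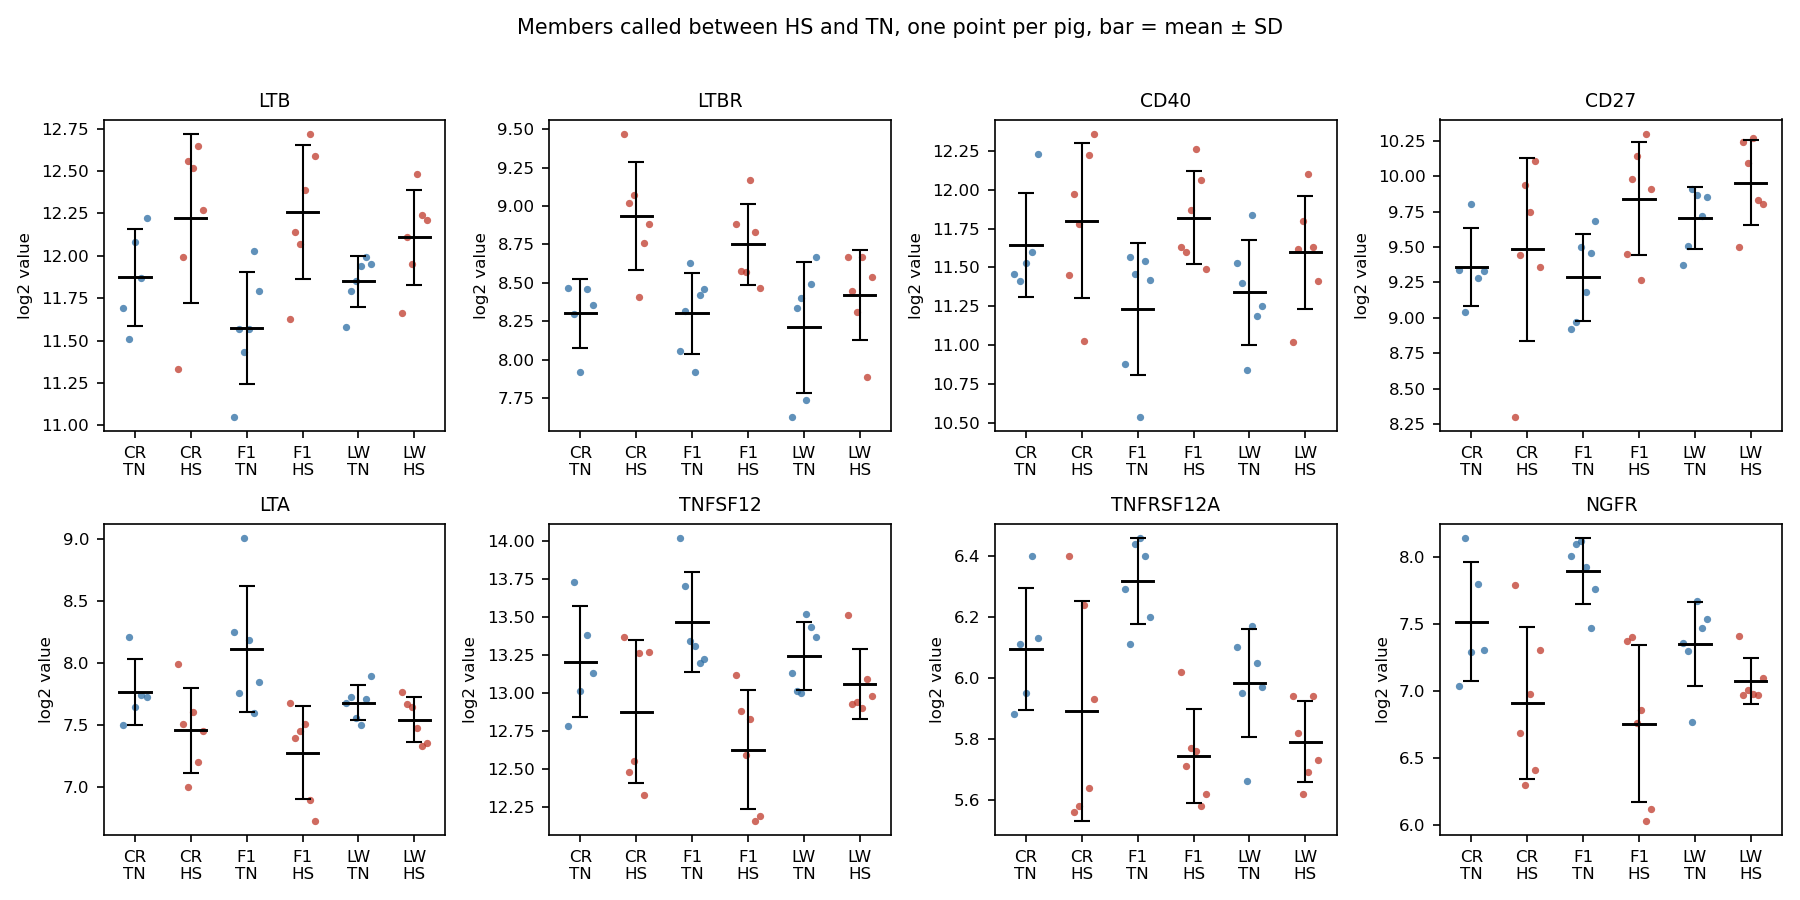
Authors' log2 values (vertical axis) of the 8 called members in the 6 groups, with 1 point for each pig, TN in blue, HS in red, and bars for mean ± SD. LTB, LTBR, CD40 and CD27 lie higher in HS pigs, LTA, TNFSF12, TNFRSF12A and NGFR lower, and the groups overlap in every breed except F1 for TNFSF12, TNFRSF12A and NGFR.

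LTB (lymphotoxin beta) is a membrane ligand that anchors LTA at the cell surface. In CR, LTB values were 11.51, 11.69, 11.87, 12.08 and 12.22 in TN pigs and ran from 11.33 to 12.65, with a median of 12.39, in HS pigs. In F1 they ran from 11.05 to 12.03 (median 11.57) in TN and from 11.63 to 12.72 (median 12.27) in HS pigs. The LW pigs had 11.58 to 11.99 (median 11.90) in TN and 11.66 to 12.48 (median 12.16) in HS. The HS pigs were the higher group in each breed, but the groups overlapped in all 3. The mean difference was 0.43 ± 0.11 (SE, n = 18 and 17, adjusted p = 0.00526), a ratio of 1.35, and 16 of 18 HS pigs were above the TN mean of their breed. A second LTB probe also rose, by 0.20 (adjusted p = 0.0212). Furthermore, 3 probes under other identifiers share 56 bases with the representative and rose by 0.35 to 0.39, whereas 2 probes for the opposite strand of these bases were well above background on 3 arrays each.

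LTBR, the receptor of LTA and LTB heterotrimers, was measured by 1 probe. The CR TN pigs had LTBR values of 7.92, 8.30, 8.36, 8.46 and 8.47, and the CR HS pigs 8.41 to 9.47 (median 8.95). F1 pigs lay between 7.92 and 8.63 (median 8.37) in TN and between 8.47 and 9.17 (median 8.70) in HS. For LW, LTBR was 7.63 to 8.67 (median 8.37) in TN and 7.89 to 8.67 (median 8.50) in HS pigs. The HS groups were higher, with overlap in each breed. The LTBR difference was 0.42 ± 0.10 (SE, n = 18 and 17, adjusted p = 0.00354), with 17 of 18 HS pigs above their TN mean, and the sign was the same on all 4 slides with a fit of their own. CR had the widest shift, 0.63 ± 0.19, with an unadjusted p-value of 0.00173 that did not pass adjustment (0.557).

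CD40 is the receptor on B cells and monocytes through which T cells give help. Values of CD40 in CR were 11.41, 11.46, 11.53, 11.60 and 12.23 in TN, against 11.03 to 12.36 (median 11.88) in HS. The F1 range was 10.54 to 11.57 (median 11.44) in TN and 11.49 to 12.26 (median 11.75) in HS pigs. Among LW pigs, CD40 ran from 10.84 to 11.84 (median 11.32) in TN and from 11.02 to 12.10 (median 11.62) in HS. One CR TN pig, at 12.23, stood above the other 4, and HS and TN pigs overlapped in each breed. The CD40 difference was 0.34 ± 0.13 (SE, n = 18 and 17, adjusted p = 0.0362), and 15 of 18 HS pigs were above their TN mean. All 4 CD40 probes were called higher, with differences of 0.34 to 0.41, although 2 of them share 51 bases. On the 4 slides with a fit of their own the representative was higher on 3 and lower on 1 (-0.13). The call of the representative was lost without any 1 of 11 pigs, with adjusted p-values up to 0.0671, whereas its difference stayed between 0.28 and 0.39.

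CD27 was at the threshold. In CR, CD27 values were 9.04, 9.28, 9.33, 9.34 and 9.80 in TN pigs and ran from 8.30 to 10.11, with a median of 9.59, in HS pigs. In F1 they ran from 8.92 to 9.68 (median 9.32) in TN and from 9.27 to 10.30 (median 9.95) in HS pigs. The LW pigs had 9.37 to 9.91 (median 9.78) in TN and 9.5 to 10.27 (median 9.96) in HS. One CR HS pig, at 8.30, was the lowest of all 35, and the groups overlapped in each breed. The CD27 difference was 0.32 ± 0.13 (SE, n = 18 and 17, adjusted p = 0.0496), with 14 of 18 HS pigs above their TN mean. Leaving out any 1 of 22 pigs ended the call, with adjusted p-values up to 0.0859. The probe with the same bases under another identifier rose by 0.39 (adjusted p = 0.0166).

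NGFR is the low-affinity receptor of neurotrophins, and had the widest difference of all members. The CR TN pigs had NGFR values of 7.04, 7.29, 7.31, 7.80 and 8.14, and the CR HS pigs 6.30 to 7.79 (median 6.83). F1 pigs lay between 7.47 and 8.12 (median 7.97) in TN and between 6.03 and 7.40 (median 6.81) in HS. For LW, NGFR was 6.77 to 7.67 (median 7.42) in TN and 6.97 to 7.41 (median 7.0) in HS pigs. In F1 the HS and TN pigs did not overlap, whereas they did in CR and LW. Such separation was found in F1 for 5 of the 40 member probes, beside 11.7% of all probes, and for 0 in CR and LW, beside 0.461% and 0.781%. NGFR fell by 0.68 ± 0.15 (SE, n = 18 and 17, adjusted p = 0.00171), a ratio of 0.625, and 16 of 18 HS pigs were below their TN mean. Only 1 probe carried the name, so that no other could be set beside it.

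TNFSF12 (TWEAK), a ligand that acts on cell death, growth and repair, fell, as did the representative probe of its receptor. Values of TNFSF12 in CR were 12.78, 13.01, 13.13, 13.38 and 13.73 in TN, against 12.33 to 13.37 (median 12.90) in HS. The F1 range was 13.20 to 14.02 (median 13.32) in TN and 12.16 to 13.12 (median 12.71) in HS pigs. Among LW pigs, TNFSF12 ran from 13.00 to 13.52 (median 13.25) in TN and from 12.90 to 13.51 (median 12.96) in HS. Again the F1 groups were apart and the others overlapped. The difference was -0.45 ± 0.12 (SE, n = 18 and 17, adjusted p = 0.00541), a ratio of 0.730, with 14 of 18 HS pigs below their TN mean. The other TNFSF12 probe, described as a readthrough of TNFSF12 and TNFSF13, fell by 0.40 (adjusted p = 0.0167), and a spot under another identifier with the representative's 60 bases fell by 0.47 (adjusted p = 0.00634).

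TNFRSF12A (FN14) is the receptor of TNFSF12. In CR, TNFRSF12A values were 5.88, 5.95, 6.11, 6.13 and 6.40 in TN pigs and ran from 5.56 to 6.40, with a median of 5.78, in HS pigs. In F1 they ran from 6.11 to 6.46 (median 6.35) in TN and from 5.58 to 6.02 (median 5.74) in HS pigs. The LW pigs had 5.66 to 6.17 (median 6.01) in TN and 5.62 to 5.94 (median 5.78) in HS. F1 TN pigs were all above the F1 HS pigs. The fall of the representative was 0.33 ± 0.08 (SE, n = 18 and 17, adjusted p = 0.00274), and 16 of 18 HS pigs were below their TN mean. However, the second probe of the gene had a difference of 0.11 (adjusted p = 0.274). Among the probes of this name in the table the fall thus rests on 1 probe. A further TNFRSF12A probe, not in the table and mostly dim, shares 49 bases with the representative. It had -0.23 in the limma fit without a filter on dim probes (adjusted p = 0.245). A probe under another identifier shares 59 bases with the representative, and its difference is not given here. The size of the fall also moved with the scaling, to 0.76 with processed signals scaled to the 75th percentile.

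LTA gave no single direction. The CR TN pigs had LTA values of 7.50, 7.65, 7.73, 7.74 and 8.21, and the CR HS pigs 7.0 to 7.99 (median 7.48). F1 pigs lay between 7.60 and 9.01 (median 8.02) in TN and between 6.73 and 7.68 (median 7.43) in HS. For LW, LTA was 7.50 to 7.90 (median 7.69) in TN and 7.33 to 7.77 (median 7.56) in HS pigs. One F1 TN pig reached 9.01, and the groups overlapped in each breed. This representative fell by 0.43 ± 0.12 (SE, n = 18 and 17, adjusted p = 0.00643), with 16 of 18 HS pigs below their TN mean. The second LTA probe rose by 0.36 ± 0.09 (adjusted p = 0.00487), with 15 of 18 HS pigs above, from a mean of 6.11 in F1 TN to 6.67 in F1 HS. A probe under another identifier with the same bases as this second probe rose by 0.41 (adjusted p = 0.00366). A further LTA probe, not in the table, was on no array well above background.

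Members listed for full description whatever their result, and not called, were TNF, FAS, FASLG, CD40LG and CD70. TNF, the founding cytokine of the family, is made above all by monocytes and T cells. Values of TNF in CR were 9.26, 9.31, 9.5, 9.74 and 9.86 in TN, against 9.19 to 9.97 (median 9.45) in HS. The F1 range was 9.71 to 10.30 (median 10.01) in TN and 9.16 to 9.91 (median 9.44) in HS pigs. Among LW pigs, TNF ran from 9.10 to 10 (median 9.63) in TN and from 9.44 to 9.92 (median 9.62) in HS. On this representative the mean of the HS pigs was 0.53 lower in F1 and within 0.06 of the TN mean in CR and LW, with overlap in each breed. In LW the other 2 probes had -0.26 (unadjusted p = 0.0433, adjusted p = 0.572) and -0.16. The TNF difference was -0.20 ± 0.10 (SE, n = 18 and 17, adjusted p = 0.0953), and it was 0.01 with the mean of erythroid markers as a covariate and -0.03 without F1 pigs. Of the other 2 probes in the table, which share 54 to 58 bases with the representative and each other, 1 fell by 0.25 (adjusted p = 0.0101) and 1 had -0.14 (adjusted p = 0.137). On the representative 12 of 18 HS pigs were below their TN mean, and on the called probe 16 of 18.

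FAS is the death receptor of activated lymphocytes and FASLG its ligand. In CR, FAS values were 8.63, 8.65, 8.73, 9.16 and 9.57 in TN pigs and ran from 8.82 to 9.56, with a median of 9.34, in HS pigs. In F1 they ran from 8.53 to 9.14 (median 8.66) in TN and from 8.80 to 9.47 (median 9.0) in HS pigs. The LW pigs had 8.79 to 10.07 (median 9.38) in TN and 8.73 to 9.37 (median 8.97) in HS. HS pigs had the higher mean in CR and F1 and the lower mean in LW. Over the breeds the FAS difference was 0.09 ± 0.12 (SE, n = 18 and 17, adjusted p = 0.588), and its sign turned without F1 pigs (-0.05) and with the erythroid covariate (-0.06).
The CR TN pigs had FASLG values of 5.34, 5.36, 5.44, 5.47 and 5.47, and the CR HS pigs 5.32 to 5.84 (median 5.57). F1 pigs lay between 5.47 and 5.99 (median 5.63) in TN and between 5.19 and 5.91 (median 5.32) in HS. For LW, FASLG was 5.15 to 6.12 (median 5.60) in TN and 5.39 to 5.78 (median 5.45) in HS pigs. The FASLG groups overlapped throughout, and the difference was -0.06 ± 0.08 (SE, n = 18 and 17, adjusted p = 0.590), or 0.03 without F1 pigs. FASLG was a dim probe, well above background on 28 of 35 arrays and on 3 of 6 in F1 HS pigs.

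CD40LG, the T cell ligand of CD40, was also dim, with 29 arrays well above background and 2 of 6 in F1 TN pigs. Values of CD40LG in CR were 5.42, 5.5, 5.56, 5.82 and 5.88 in TN, against 5.59 to 6.03 (median 5.84) in HS. The F1 range was 5.30 to 5.77 (median 5.52) in TN and 5.39 to 6.19 (median 5.82) in HS pigs. Among LW pigs, CD40LG ran from 5.36 to 6.17 (median 5.79) in TN and from 5.5 to 5.96 (median 5.71) in HS. HS and TN pigs overlapped in each breed. The CD40LG difference was 0.15 ± 0.08 (SE, n = 18 and 17, adjusted p = 0.136), and a probe with the same bases gave 0.12. Thus the receptor CD40 passed the threshold and its ligand did not, and the difference between both was not tested.

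CD70 had opposite signs on its overlapping probes. In CR, CD70 values were 6.67, 6.74, 6.93, 6.94 and 7.20 in TN pigs and ran from 6.59 to 7.04, with a median of 6.87, in HS pigs. In F1 they ran from 6.86 to 7.32 (median 7.12) in TN and from 6.12 to 7.31 (median 6.70) in HS pigs. The LW pigs had 6.38 to 7.23 (median 6.84) in TN and 6.32 to 6.92 (median 6.66) in HS. HS and TN pigs overlapped in each breed. For this representative the difference was -0.24 ± 0.10 (SE, n = 18 and 17, adjusted p = 0.0587), with 12 of 18 HS pigs below their TN mean, and the mean over both CD70 probes gave 0.02. The other probe, shown above with its 33 shared bases, rose by 0.27 ± 0.08 (adjusted p = 0.00681), with 15 of 18 HS pigs above their TN mean, and a probe with the same 60 bases rose by 0.23 (adjusted p = 0.0257). In F1 this probe was well above background on 3 of 6 TN and 6 of 6 HS pigs.

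**Figure D2:**
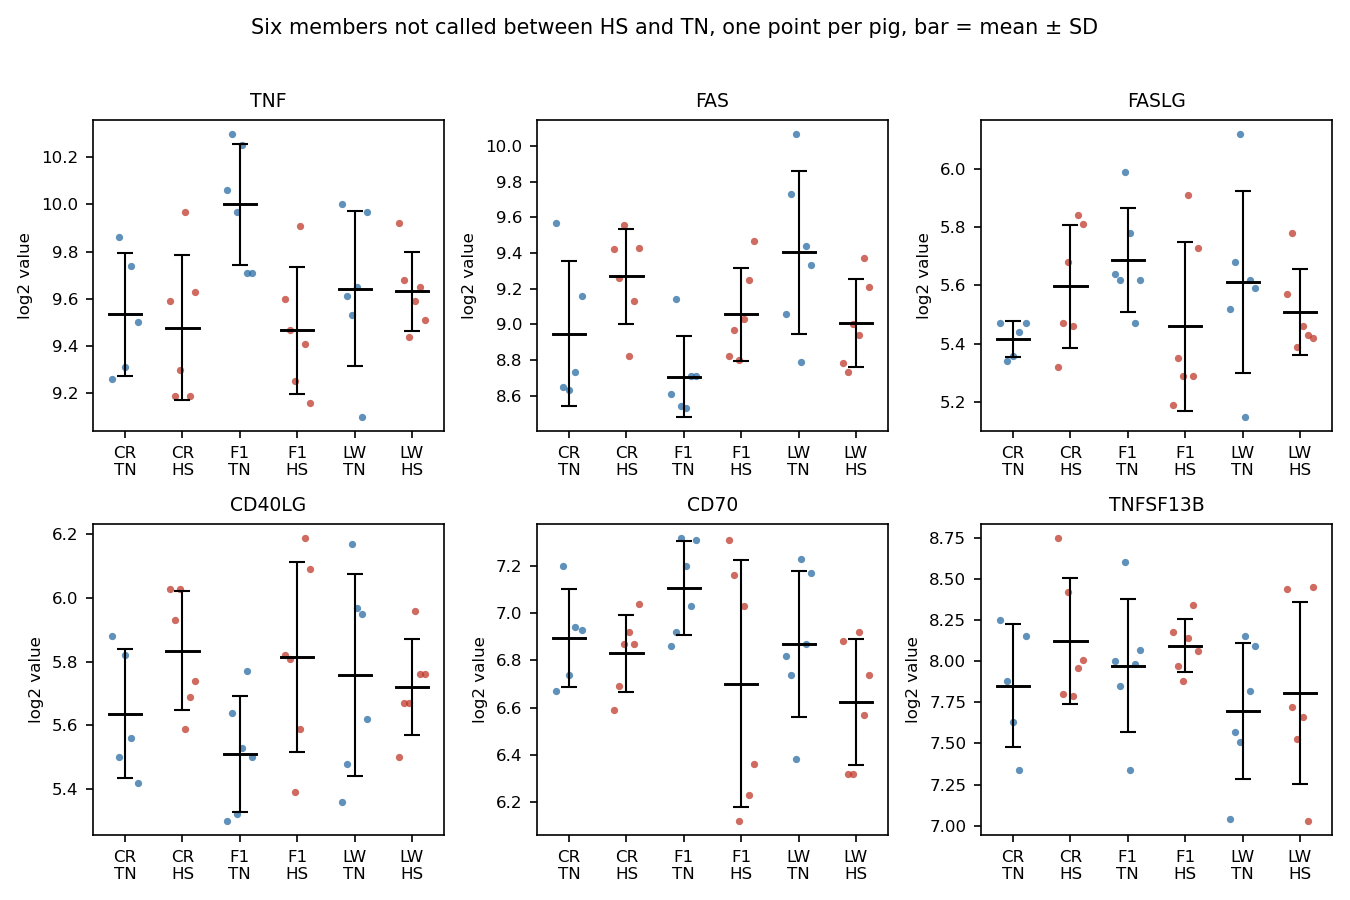
Authors' log2 values (vertical axis) of TNF, FAS, FASLG, CD40LG, CD70 and TNFSF13B by group, drawn as 1 point for each pig, TN in blue, HS in red, with bars for mean ± SD. HS and TN pigs overlap in every breed for these 6 representative probes, and FAS has the higher HS mean in CR and F1 but the lower one in LW.

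The remaining 6 genes had differences of 0.08 to 0.24 on their representative probes, all positive and none called. They were the ligands TNFSF10 (TRAIL), at 0.10, and TNFSF13B (BAFF), at 0.16, and the receptors TNFRSF21 at 0.08, TNFRSF8 (CD30) at 0.12, TNFRSF1A at 0.22 and TNFRSF1B at 0.24. TNFRSF1A and TNFRSF1B are the receptors of TNF, and 15 of 18 HS pigs were above their TN mean for each. Another probe of each passed the threshold, at 0.28 (adjusted p = 0.0246) for TNFRSF1A and 0.28 (adjusted p = 0.0130) for TNFRSF1B. One TNFRSF1A probe with 0.06 shares 20 or more bases with 28 probes of other names on either strand, and TNFSF13B, a survival factor of B cells, gave 0.32 on its other probe (adjusted p = 0.101).

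Of all 40 member probes, 12 were called higher and 6 lower under heat stress, a share of 45% beside 34.8% of all probes. Several of the called probes belong to the same gene, 4 of them to CD40, so that this share counts some genes more than once. By gene it was 42.1% beside 39.5%. Among the 14 genes with more than 1 probe, 10 had a single sign and 4 had both, namely LTA, CD70, TNFRSF12A and TNFSF10. Only LTA had calls in both directions. As a measure of technical error, 13 pairs of probes with the same 60 bases differed in the heat stress difference by a median of 0.03 and by at most 0.09, and all 13 lay on the same side of the threshold. The gap between the LTA probes and between the CD70 probes was thus wider than that between spots of the same sequence.

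**Figure D3:**
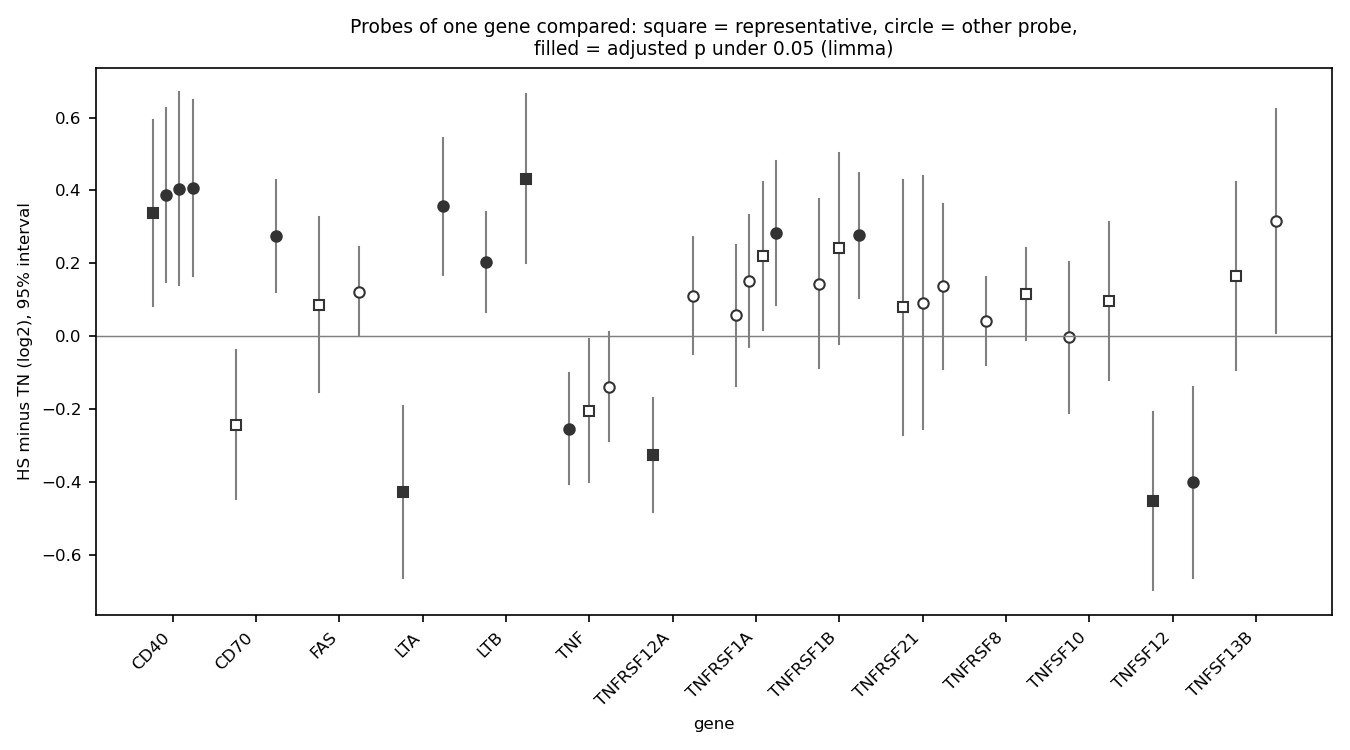
HS minus TN difference (vertical axis, log2, lines are 95% intervals) for every probe of the 14 members with more than 1 probe, with squares for representative probes, circles for the others, and filled symbols for adjusted p under 0.05. The 4 CD40 probes lie together at 0.34 to 0.41, while the probes of LTA lie on both sides of 0, at -0.43 and 0.36.

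Within F1 pigs alone, 9 members were called, beside 43.5% of all genes in this contrast (23% higher and 20.4% lower). LTB, CD40, CD27 and LTBR rose, by 0.68, 0.58, 0.56 and 0.45. NGFR fell by 1.14, TNFSF12 by 0.84, LTA by 0.83, TNFRSF12A by 0.57 and TNF by 0.53 (adjusted p = 0.00829), again with LTA by its representative. For each gene that fell, F1 TN pigs had the highest mean of the TN groups. For NGFR it was 7.90, beside 7.52 in CR and 7.35 in LW, whereas the HS means were 6.76, 6.91 and 7.07. F1 TN had the lowest TN mean for LTB, CD40 and CD27, but not for LTBR. On average 60.02% of probes were well above background on F1 TN arrays, beside 65.11% on F1 HS arrays. How far the F1 calls rest on the F1 TN arrays was not tested. In CR and in LW no member was called, nor was any of the 39072 probes (0% in both). At an unadjusted p-value under 0.05 there were 4 of 40 member probes in CR, beside 3466 of all 39072 probes, and 3 in LW, beside 3404. By representative probes there were 3 of 19 members in CR and 1 in LW. These were LTBR, NGFR and TNFRSF1A in CR and FAS in LW. The 8 genes called over all breeds had the same sign in each breed. These contrasts share pigs with the one over all breeds. With the erythroid covariate none of the 9 calls in F1 was kept, and the erythroid markers had a mean log2 value of 12.49 in F1 TN and 11.51 in F1 HS pigs.

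**Figure D4:**
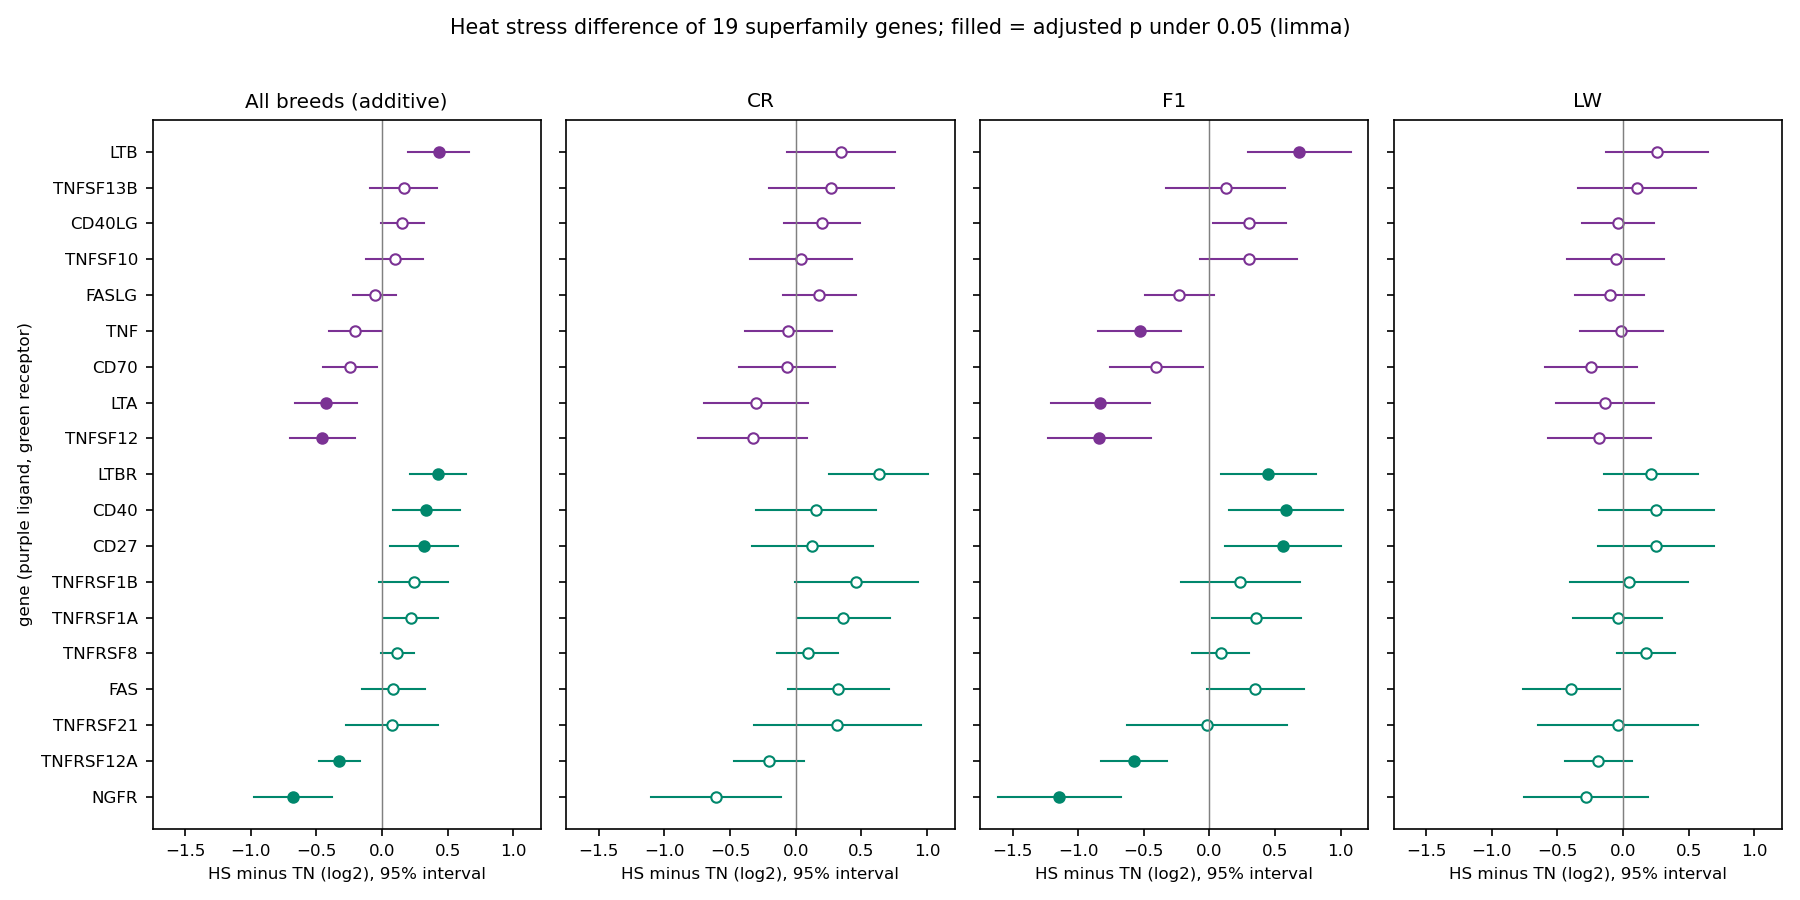
HS minus TN difference (horizontal axis, log2, lines are 95% intervals) of the 19 members over all breeds and within CR, F1 and LW, with ligands in purple, receptors in green, and filled circles for adjusted p under 0.05. Filled circles appear over all breeds (8 genes) and in F1 (9 genes), and none in CR or LW.

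A call in F1 and none in CR or LW does not show that breeds differ. In the interaction test of breed and climate no member was called, nor any probe (0%). At an unadjusted p-value under 0.05 there were 5 of 40 member probes, beside 5807 of all 39072 probes. By representative probes there were 4 of 19 members, and the smallest member adjusted p was 0.278, for FAS. On the representative the FAS difference was 0.32 ± 0.19 in CR, 0.35 ± 0.18 in F1 and -0.39 ± 0.18 in LW. The gap of F1 to LW in FAS was 0.74 (95% interval 0.22 to 1.26, adjusted p = 0.122). On the other FAS probe it was 0.23 (95% interval -0.06 to 0.52). For NGFR, with 1 probe, the gap of F1 to LW was -0.86 (95% interval -1.53 to -0.20, adjusted p = 0.138). The representative probe of LTA had -0.69 (-1.22 to -0.16, adjusted p = 0.136) and its second probe 0.32 (-0.13 to 0.77). The representative of TNF had -0.52 (-0.96 to -0.07, adjusted p = 0.163), whereas its other 2 probes had -0.14 and -0.11, with intervals that included 0. None of them passed.

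Between breeds no member was called. In CR minus LW, 1.1% of all genes were called, and the smallest adjusted p of a representative probe was 0.261. CD27 had the widest difference, -0.42 (95% interval -0.74 to -0.10, unadjusted p = 0.0114). LTBR, at 0.31 (95% interval 0.05 to 0.57, unadjusted p = 0.0221), was the other representative with an unadjusted p-value under 0.05. Intervals of the remaining 17 representatives included 0, with differences up to 0.35 in size. Over all 40 member probes, 8 had an unadjusted p-value under 0.05, beside 3950 of all 39072 probes. The smallest adjusted p was 0.188, for a TNFRSF1B probe at 0.31. The others besides CD27 and LTBR were 3 of the 4 CD40 probes, at 0.36 to 0.41, a CD70 probe at 0.26 and a TNFRSF21 probe at 0.38. Of these CD40 probes, 2 share 51 bases. In CR minus LW the 6 T cell markers of the list used below were, like CD27, all negative. They ran from -0.51 (CD3D) to -0.28 (CD3E), and none was called. Any link of CD27 with these markers was not tested. In F1 minus CR, where 0.102% of all genes were called, the representative probes had differences between -0.24 and 0.22, none with an unadjusted p-value under 0.05. In F1 minus LW, where 0.0113% were called, FAS had -0.32 (unadjusted p = 0.0296, adjusted p = 0.9998).

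Blood holds several cell types, and a change in a bulk value can come from fewer cells of a type or from less RNA per cell, which cannot be told apart. Of the B cell markers, 6 of 8 were in the table and 2 rose, MS4A1 by 0.38 and CD79B by 0.35, with a median of 0.24 over the list. The mean log2 value of this list was 9.06 (8.70 to 9.41) in F1 TN and 9.51 (9.18 to 9.88) in F1 HS pigs, 9.46 and 9.56 in CR, and 9.24 and 9.41 in LW. Of 6 T cell markers, 2 rose, CD5 by 0.45 and CD2 by 0.33, with a median of 0.21, and the list mean was 11.06 (10.79 to 11.29) in F1 TN and 11.52 (11.09 to 11.88) in F1 HS pigs, 11.21 and 11.32 in CR, and 11.59 and 11.62 in LW. Monocyte markers had 2 of 6 higher, CSF1R and VCAN, with a median of 0.07. CD163 had 0.24, whereas CD14, CD68 and LYZ had -0.10, -0.10 and -0.14, none of them called. For each of these 3 lists the share called, 33.3%, lay below the 39.5% of all named genes. Their medians of 0.24, 0.21 and 0.07 lay above the 0.06 over all named genes. Within F1 the medians were 0.48, 0.53 and 0.16, beside 0.13. One of 6 cytotoxic lymphocyte markers fell, KLRK1 (-0.75), with a median of 0.01 over the list. CST7, PRF1 and GZMB had 0.14, 0.09 and 0.08, and GZMA and NKG7 -0.12 and -0.07, none of them called. No neutrophil (6) or platelet (3) marker passed, with medians of -0.47 and 0.24. CD40 and CD27 are themselves expressed by B cells or T cells, and the part of cell numbers in their rise was not tested.

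Of 7 erythroid markers, 3 were called lower, EPB42, ALAS2 and HEMGN, and 1 was called higher, SLC4A1. This share was 57.1%, beside 39.5% of all named genes. KLF1, HBB and AHSP had -0.72, -0.13 and -0.05, none of them called. The median of the list was -0.72. The mean log2 value of the list was 12.49 (11.72 to 13.21) in F1 TN and 11.51 (10.60 to 12.02) in F1 HS pigs, whereas it was 12.26 and 12.02 in LW and 12.04 and 11.76 in CR. With this mean as a covariate in the fit, no member was called, and 1 of 39072 probes was called. The NGFR difference was then -0.38 ± 0.14, that of LTBR 0.34 ± 0.12, that of LTB 0.22 ± 0.11 and that of CD27 0.06 ± 0.12. Without F1 pigs no member and no probe was called, although all 8 differences kept their sign over the 23 other pigs, with LTBR at 0.41 ± 0.14 and NGFR at -0.44 ± 0.16.

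**Figure D5:**
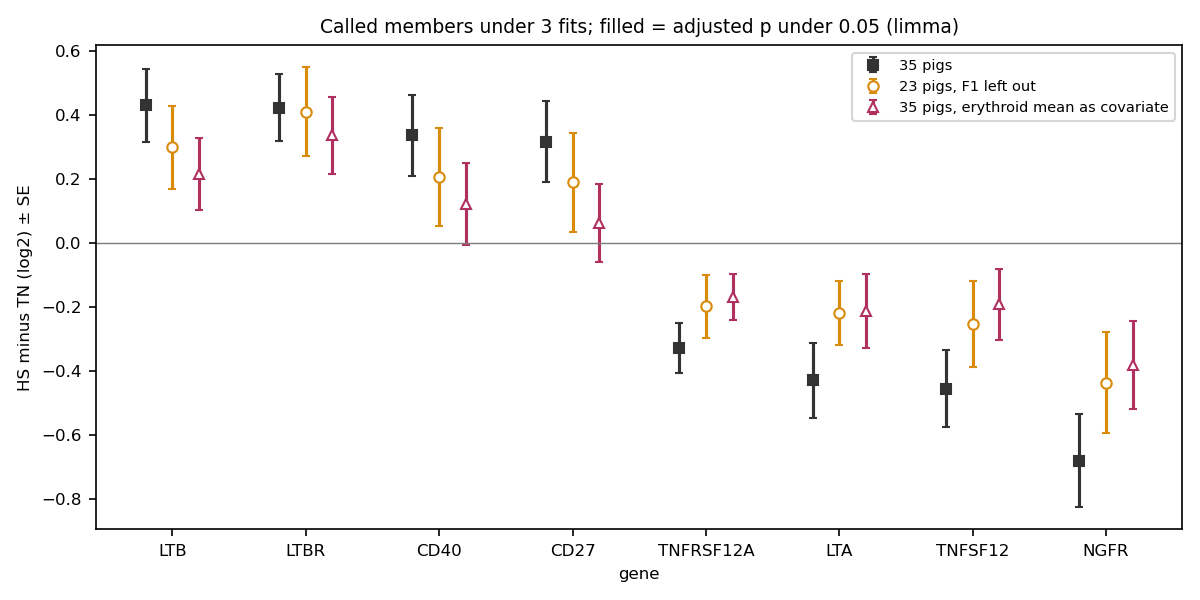
HS minus TN difference ± SE (vertical axis, log2) of the 8 called members over 35 pigs (squares), over 23 pigs without F1 (circles) and with the erythroid mean as covariate (triangles), with filled symbols for adjusted p under 0.05. Symbols are filled for the first fit only, every sign is kept, and CD27 goes from 0.32 to 0.06 with the covariate.

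Downstream of the receptors, 35 of 45 listed signalling genes were in the table. Of these, 20 were called higher and 2 lower under heat stress, 62.9% beside 39.5% of all named genes, and the median was 0.21 beside 0.06. The list was chosen with earlier results of these data known, so that its share is no independent test. TRAF adaptors were represented by TRAF4, which rose by 0.40, and by TRAF3, TRAF5 and TRAF6, which also rose. Kinases and adaptors close to the receptors rose too, RIPK1 by 0.37 and FADD, the adaptor of FAS, by 0.29. RNF31 (0.36) and SHARPIN (0.21) are parts of the complex that adds linear ubiquitin chains, although 1 of 4 RNF31 probes was called lower. NFKB1 rose by 0.39 on a representative whose gene had 3 of 3 probes called higher, NFKB2 by 0.26 and the inhibitor NFKBIE by 0.35. ADAM10, a protease of the cell surface, rose by 0.34 (adjusted p = 0.00159).

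RELA, the p65 subunit of NF-kappaB, had a representative that fell by 1.30 ± 0.27 (SE, adjusted p = 0.00159), while 2 of its other 3 probes rose, by 0.31 and 0.34, so that no direction can be given. BIRC2, an inhibitor of apoptosis, fell by 0.42 on its only probe. With the erythroid covariate no signalling gene was called, and none without F1 pigs. In CR and LW the medians of the list were 0.18 and 0.11, with no calls, beside 0.34 in F1.

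Within groups the pigs differed more for some members than for others. The SD within groups ran from 0.18 for TNFRSF8 to 0.54 for TNFRSF21, a death receptor, with a median of 0.32 over the 19 members beside 0.27 over all named genes. TNFRSF21 and NGFR (0.42) were the most variable, and TNFRSF12A (0.21) and FASLG (0.22) were next above TNFRSF8.

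Some of the genes are neighbours in the pig genome according to RefSeq (Sscrofa11.1). LTA, TNF and LTB lie next to each other on chromosome 7, in the order LTA, TNF, LTB. The representative probes of LTA and LTB differed in sign, whereas the second LTA probe rose, as LTB did. CD27 and LTBR are adjacent on chromosome 5, and both rose. TNFRSF8 and TNFRSF1B are adjacent on chromosome 6, and neither was called on its representative probe. Another TNFRSF1B probe was called higher, at 0.28 (adjusted p = 0.0130). The files give no position for any probe and no genome was used, so that exon, intron or untranslated position is not stated.

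Members without a probe in the authors' table, by the name rule, were TNFSF4, TNFRSF4, TNFRSF11A (RANK), TNFRSF11B (osteoprotegerin) and TNFRSF18 (GITR). The probes that the rule found for the last 3 were well above background on no array. In addition, 8 probes outside the rule had a name or description of another or the same superfamily member and were not counted. Of these, 6 were in the table, among them RELT, APRIL and, by description, a TNFRSF18 probe and a probe like TNFRSF11A.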

How the data were processed

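Whole blood RNA of 35 pigs was labelled with Cy3 and hybridized on a custom porcine array of 60-base probes. According to the submitters' processing notes, Agilent Feature Extraction 10.10.1.1 read the images. Per array, the deposited files hold raw median and mean spot intensity, local background intensity and a processed intensity, none of them normalized between arrays. The authors made the deposited log2 table (39072 probes) from the median intensity by quantile normalization and a filter on expressed probes, whose rule is not given in the sources used here. All value columns carry a sample name.

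Groups came from the labels. limma 3.58.1 in R 4.3.3 was fitted on the authors' log2 values of all probes, with breed and climate as additive terms, or with 6 group means for contrasts within breeds and the interaction. The study's random terms for pen, slaughter day, sire and dam carry no label and were left out. Tests were two-sided with Benjamini-Hochberg adjustment over 39072 probes. A gene was represented by its probe with the highest mean log2 value. Probe names came from the scanner files. The genes named in full were those called over all breeds or between breeds plus TNF, LTA, LTB, CD40, CD40LG, FAS, FASLG, CD27 and CD70, and up to 10 called signalling genes by adjusted p, with TRAF3, TRAF5, TRAF6 and BIRC2 added after their values were seen. Members and lists were chosen with earlier results of these data known. The fit was tested on simulated data. The number of arrays limits the precision. Alternatives covered normalization, background correction (normexp, offset 50), filters, slide, array weights, an erythroid covariate, leaving out F1 or single pigs, and gene means.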

Additional observations from a re-analysis of the deposited data

Results flagged for a closer look

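Single pigs stood apart from the rest of their group in 4 of 78 groups examined for 13 genes (Dixon's test), where chance gives about 5%. A LW HS pig (replicate 1) had the highest value of its group both for NGFR, 7.41 beside 6.97 to 7.10 in the other 5 pigs, and for TNFSF12, 13.51 beside 12.90 to 13.09. For CD40 a CR TN pig (replicate 5) had 12.23 beside 11.41 to 11.60, and for FAS a F1 TN pig (replicate 2) had 9.14 beside 8.53 to 8.71.

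Signal above background was also found for member probes that the authors' table does not hold. Another TNF probe was well above background on 15 of 35 arrays. Both TNFSF4 probes were so on 6 arrays each, and the Tnfrsf4 probe, with the same bases as one of them, on 7 arrays. A TNFRSF12A probe that shares 49 bases with the representative was well above background on 7 arrays, and reached 7.36 in 1 F1 TN pig on values normalized here, with a group median of 5.22. In the fit without a filter on dim probes none of these was called under heat stress over all breeds or between breeds. Within F1, the Tnfrsf4 probe had an adjusted p of 0.0403 but was well above background on 0 of 6 TN and 2 of 6 HS arrays, so that no difference in level is read from it, and the TNFSF4 probe with the same bases was not called (adjusted p = 0.213).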

How the results depend on the processing

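No paired analysis was possible because each pig was sampled in 1 climate only and the labels do not name the litters. The counts of members called higher and lower over all breeds (4 and 4) fell to 0 and 0 with the erythroid covariate and to 0 and 0 without F1 pigs, with 3 and 4 members at an unadjusted p under 0.05. With no filter on dim probes 2 members were called higher, since CD40 (adjusted p = 0.0517) and CD27 (0.0692) lost their calls among 60305 probes. With the scanner median intensity normalized here and a filter on probes well above background on at least 0.5 of the arrays of a group, 3 members were higher and 4 lower, since CD27 lost its call (adjusted p = 0.0502). In F1, the 9 calls fell to 0 with the covariate. The signalling list went from 22 calls to 0 with the covariate and 0 without F1 pigs. In CR minus LW the covariate gave 1 call, CD27, at -0.53 (adjusted p = 0.0218). The cause was not tested. Leaving out 1 pig at a time gave 2 to 5 members higher, 4 to 5 lower, 6 to 11 in F1, 19 to 24 signalling genes, and 0 to 0 in all other comparisons. The count of 2 came without F1 TN replicates 1 or 4, CR TN replicate 2, F1 HS replicates 3 or 5, LW HS replicates 3 or 4, or CR HS replicate 5. LTB, LTBR, NGFR, TNFSF12, TNFRSF12A and LTA kept their calls without any 1 pig. With the mean of all probes of a gene, LTA (-0.04) and TNFRSF12A (-0.11) lost theirs and TNF gained one (-0.20, adjusted p = 0.0270). CD70 moved from -0.24 to 0.02 there. TNF, not called at -0.20, was 0.01 with the covariate and -0.03 without F1 pigs. TNF and CD70 were also called with array weights (adjusted p = 0.0408 and 0.0333). Slide as a block, normexp, scaling to the 75th percentile and the stricter filter left 4 or 5 members higher and 4 lower, although scaling to the 75th percentile moved TNFRSF12A from -0.33 to -0.76. Scaling moved the median of all probes from 0.06 to 0.08. Dim probes (FASLG, CD40LG and the CD70 probe that does not represent its gene) limit what their differences show. The TNFRSF12A representative, although well above background on all 35 arrays, had a low mean of 5.97.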
